A study of Danio rerio with 6 samples.

Results

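Protocadherins are the largest family of cadherin-type adhesion proteins. Their genes were taken as the RefSeq transcripts with a symbol starting with pcdh and at least 10 estimated counts summed over the 6 libraries. Of the 15455 transcripts in the files, 52 carried such a symbol and 51 were kept, 42 from the clustered arrays and 9 from non-clustered genes. The row left out was pcdh2g3, which was at 0 in all 6 libraries. The kept row with the fewest counts was pcdh2g7, with a sum of 31.7, and the next was pcdh2g9, with 114. The choice of genes used the sum over all libraries, and pcdh2ab5 was singled out with its values in mutants and wild types already known. Its values are therefore given as a description, without a test.

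RNA was sequenced from zebrafish at 72 hpf, in 3 pools of hnrnpul1/1l double homozygous mutants (labelled DKO) and 3 pools of wild types (WT), with 8 embryos in each pool and the tails removed for genotyping. The study's mutants carry insertion alleles made with CRISPR, by default ca54 for hnrnpul1 and ca52 for hnrnpul1l, and those used for sequencing were maternal zygotic mutants for hnrnpul1l and zygotic mutants for hnrnpul1. The wild types are described as siblings in the methods and as offspring of hnrnpul1l heterozygotes in the results. A difference between the genotypes and a difference between the parents of the pools can therefore not be told apart here. The labels give no strain and name the whole embryo as source, and each library holds every tissue except the tail. Fewer cells of a type and less RNA per cell cannot be told apart in such libraries.

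The libraries held 62580215, 40891309 and 52821179 estimated counts in the mutant pools and 57496135, 52250779 and 61266049 in the wild-type pools. The targeted gene hnrnpul1 had 47.7, 45.7 and 22.1 CPM (counts scaled to library size after TMM) in the mutant pools, against 127, 122 and 118 CPM in wild types, without overlap. No row paired with hnrnpul1l, which was not analysed here. Of 13 neuronal marker genes with a row, 12 were lower in mutants by fitted fold change, and their summed level was 5322 to 10824 CPM in mutant pools against 6837 to 10204 CPM in wild-type pools. For 11 neural progenitor genes, all were higher by fitted fold change, with sums of 2742 to 4075 CPM in mutants against 2864 to 3465 CPM in wild types. All 14 photoreceptor genes with a row were lower, with sums of 1264 to 4540 CPM in mutants against 7276 to 10750 CPM in wild types. None of these genes passed an edgeR adjusted p below 0.05, and neither did any of the 13553 transcripts tested. None of these genes was at 0 in all 6 libraries. The part of these shifts in the values below was not tested.

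Clustered protocadherins are arranged in arrays in which each variable exon has its own promoter and is spliced to a set of constant exons shared by the whole array. In mouse neurons, single cells use a few members each, and the proteins bind like to like on opposing membranes, which gives neighbouring neurons different surface identities. Zebrafish have a pcdh1 cluster and a pcdh2 cluster. In both, the alpha-type members (pcdh1a, pcdh2aa, pcdh2ab, pcdh2ac) stand beside the gamma-type members (pcdh1g, pcdh2g). Non-clustered protocadherins are single genes without shared exons. They act in cell sorting, axon growth, synapses and sensory hair bundles.

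The gene records follow this layout. In the RefSeq table of the GRCz12tu assembly, all 3 pcdh1a genes, 14 of the 15 pcdh1g genes, all 11 pcdh2aa, pcdh2ab and pcdh2ac genes and 11 of the 14 pcdh2g genes ended at a common 3′ position within their array. The files refer to another assembly, danRer10, so the order of genes was used and no coordinates are given. Kallisto divides reads that fit several transcripts, which gives fractional counts. Of the 252 values of clustered members, 198 were not whole numbers (tolerance 1e-06), whereas 0 of the 54 values of non-clustered members were fractional. Over all transcripts, 15.7% to 18.2% of the values in a library were not whole. Estimated counts of clustered members carry the uncertainty of that division, and which exons the divided reads came from was not tested. For the non-clustered genes no such division was visible. Records that share a 3′ end overlap there, and the records of pcdh2g28 and pcdh2g29 overlap too. The part of such overlaps in the estimated counts was not tested.

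The clustered genes were patchy from pool to pool, in both genotypes. Of the 42 members, 14 had at least 3 estimated counts in every library, and 28 dropped below that in at least 1 library. The number with at least 3 counts was 26, 20 and 35 in the mutant pools and 30, 32 and 40 in the wild-type pools. Mutant pool 2, with the fewest detected members, was the shallowest library, and mutant pool 1 was the deepest. The part of depth in these numbers was not tested. Mutant pool 2 was strictly lowest for 13 members, and wild-type pool 3 was strictly highest for 21. The genotype ranges of these numbers overlapped, since mutant pool 3 had more detected members than wild-type pools 1 and 2.

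Some members swung between near absence and high levels. Among the 42, 16 reached 10 CPM in at least 1 library and were under 3 counts in another, which is 38.1%. Over all 14559 transcripts with a count, 165 did so, or 1.13%. None of the 9 non-clustered genes did. By array these were 6 of the 7 pcdh2ab members, 5 of the 13 pcdh2g members, 2 of the 15 pcdh1g members, 2 of the 3 pcdh1a members and 1 of the 3 pcdh2aa members. Among rows that reached 10 CPM at all, these were all 6 in pcdh2ab, all 5 in pcdh2g and 2 of 11 in pcdh1g. Over all transcripts that reached it the share was 1.76%. Both limits were set after the values were seen. Such swings were found among pools of 1 genotype: pcdh2ab12 was near 0 in mutant pool 2 with 0.869 estimated counts, against 1691 and 1303 in mutant pools 1 and 3.

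**Figure D1:**
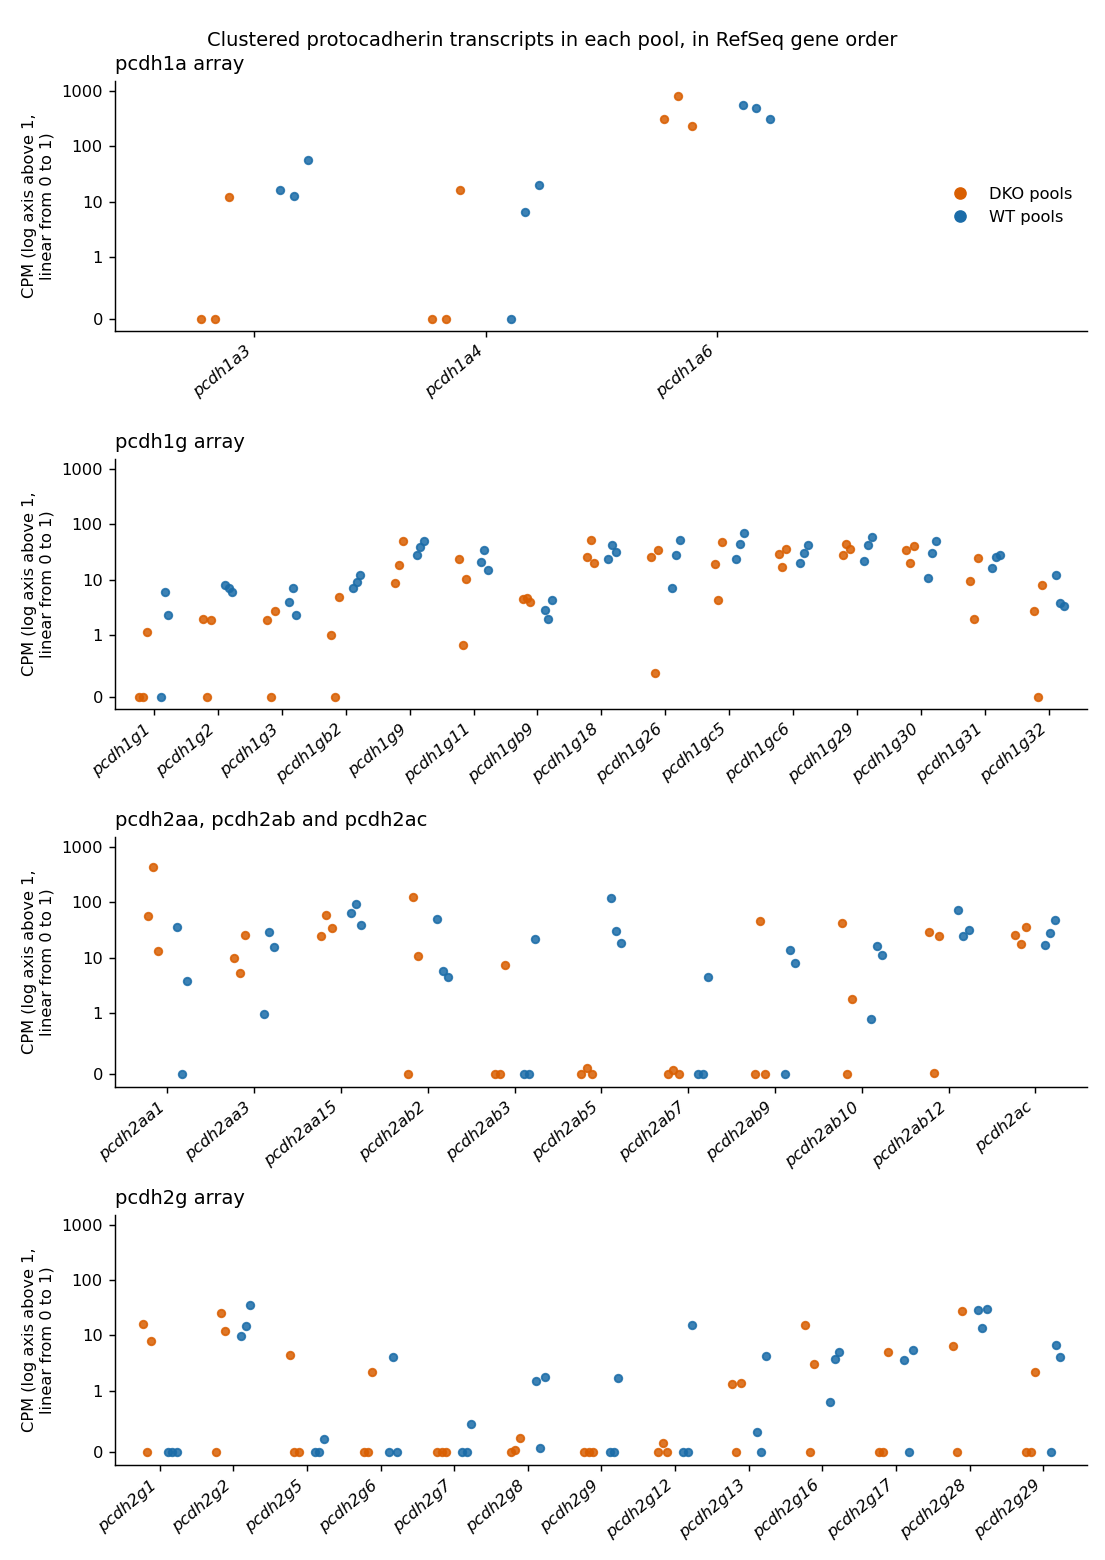
Level of each clustered protocadherin in each pool, in CPM on a log axis above 1 and a linear axis from 0 to 1, with members of an array in RefSeq gene order along the horizontal axis. Mutant (DKO) pools are orange and stand left of the wild-type (WT) pools in blue; pcdh2ab5 has 0, 0.0976 and 0 CPM in mutants, and many other members of pcdh2ab and pcdh2g have pools of both genotypes at or near 0.

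The pcdh2ab5 transcript (NM_001008483) had 0, 3.64 and 0 estimated counts in the mutant pools, against 6979, 1573 and 1213 in the wild-type pools. In CPM these were 0, 0.0976 and 0 in mutants and 119, 29.5 and 18.1 in wild types. The mutant pools were thus at or next to 0 and all 3 wild-type pools were well above it. Means were 0.0325 ± 0.0563 CPM in mutants and 55.7 ± 55.4 CPM in wild types (SD, n = 3 each), so the wild-type pools also differed widely among themselves. Summed over pools and rounded, there were 4 counts in mutants and 9765 in wild types, and the mutant rate was 2054-fold lower. This ratio rests on few mutant counts and leaves out the spread between pools. It has no interval, since the gene was chosen with its values known. The fitted log2 fold change of -10.85 depends on the small count added by the model and is no bound. Without mutant pool 2, the only mutant pool with a count, the mutants had no count at all. With 3 counts over the group put in as a floor, the ratio was then 2059-fold. That value follows from the floor, leaves out the spread between pools and is no bound for the genotypes.

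No neighbouring row had all mutant pools next to 0 and all wild-type pools well above it. However, pcdh2ab3 and pcdh2ab7 were under 3 counts in most pools of both genotypes, so they say little on whether the pattern was shared. On the side towards pcdh2aa, the nearest member pcdh2ab3 was under 3 counts in mutant pools 1 and 2 and had 7.33 CPM in mutant pool 3. In wild types it was under 3 counts in pools 1 and 2 and reached 21.7 CPM in pool 3. The next, pcdh2ab2, was under 3 counts in mutant pool 1 and had 121 and 10.7 CPM in mutant pools 2 and 3, against 49.97, 5.82 and 4.42 CPM in wild types. Mutant pool 2 was the highest of the 6 libraries for this gene and mutant pool 1 the lowest. Farther out, pcdh2aa15 had 24.0, 57.5 and 34.4 CPM in mutants and 63.8, 92.0 and 38.0 CPM in wild types, with overlapping groups. Its log2 fold change was -0.74, with an edgeR adjusted p = 0.664. The SE, an approximate standard error derived from the F statistic of the test, was 0.41.

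On the other side of pcdh2ab5, the nearest member pcdh2ab7 was under 3 counts in all mutant pools and in wild-type pools 1 and 2, and had 4.41 CPM in wild-type pool 3. Beyond it, pcdh2ab9 was at 0 in mutant pools 1 and 3 and had 46.3 CPM in mutant pool 2. In wild types it was under 3 counts in pool 1 and had 13.8 and 8.08 CPM in pools 2 and 3. Again a single mutant pool was the highest of all. Beyond that, pcdh2ab10 had 42.1, 0.0103 and 1.79 CPM in mutants, against 0.900, 16.2 and 10.9 CPM in wild types. Here the high mutant library was pool 1 and not pool 2. The last pcdh2ab row, pcdh2ab12, had 28.4, 0.0233 and 24.3 CPM in mutants and 71.7, 24.6 and 31.6 CPM in wild types.

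Among the pcdh2ab members tested, pcdh2ab2, pcdh2ab9 and pcdh2ab10 had fitted log2 fold changes of 1.13, 1.08 and 0.65. Each was smaller than its SE of 1.82, 2.46 and 1.76. Their direction turned with 1 pool. Without mutant pool 2 the value was -1.83 for pcdh2ab2 and -11.72 for pcdh2ab9, and without mutant pool 1 it was -3.30 for pcdh2ab10. The -11.72 depends on the small count added by the model, since pcdh2ab9 was at 0 in mutant pools 1 and 3. For pcdh2ab12 the value was -1.28 (SE 1.31; edgeR adjusted p = 0.865). Apart from pcdh2ab5, no pcdh2ab member had mutant and wild-type pools that did not overlap.

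The pcdh2ab counts were divided among members in a different way in each pool. In the mutant pools pcdh2ab5 held 0%, 0.0582% and 0% of these counts, and in the wild-type pools it held 49.3%, 32.8% and 18.3%. The leading member was pcdh2ab10 in mutant pool 1 with 59.7%, pcdh2ab2 in mutant pool 2 with 72.3% and pcdh2ab12 in mutant pool 3 with 55.2%. In wild types it was pcdh2ab5 in pools 1 and 2 and pcdh2ab12 in pool 3, with 31.9%. Thus no pair of mutant pools shared a leading member. The share of counts that a pair of pools placed on the same members was 0.0200%, 24.2% and 44.4% for the mutant pairs and 52.7%, 67.0% and 69.2% for the wild-type pairs. Between a mutant and a wild-type pool it was 12.7% to 57.0%. The pcdh2g array showed a similar contrast, with 0.0492% to 35.1% for mutant pairs and 56.0% to 71.9% for wild-type pairs. Between a mutant and a wild-type pool its range was 17.4% to 74.9%. In pcdh1a mutant pairs gave 89.1% to 100% and wild-type pairs 83.2% to 98.8%. Over pcdh2aa, pcdh2ab and pcdh2ac the ranges overlapped, with 27.3% to 57.0% and 48.0% to 68.9%. In pcdh2ab and pcdh2g the lowest mutant pair was pools 1 and 2. Mutant pool 2, the shallowest library, had 3 pcdh2ab and 2 pcdh2g rows with at least 3 counts. Mutant pool 3 shared 63.7% to 74.9% of pcdh2g counts with wild-type pools. The near absence of pcdh2ab5 in mutants enters the pcdh2ab figures, and none of these figures has a test.

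**Figure D2:**
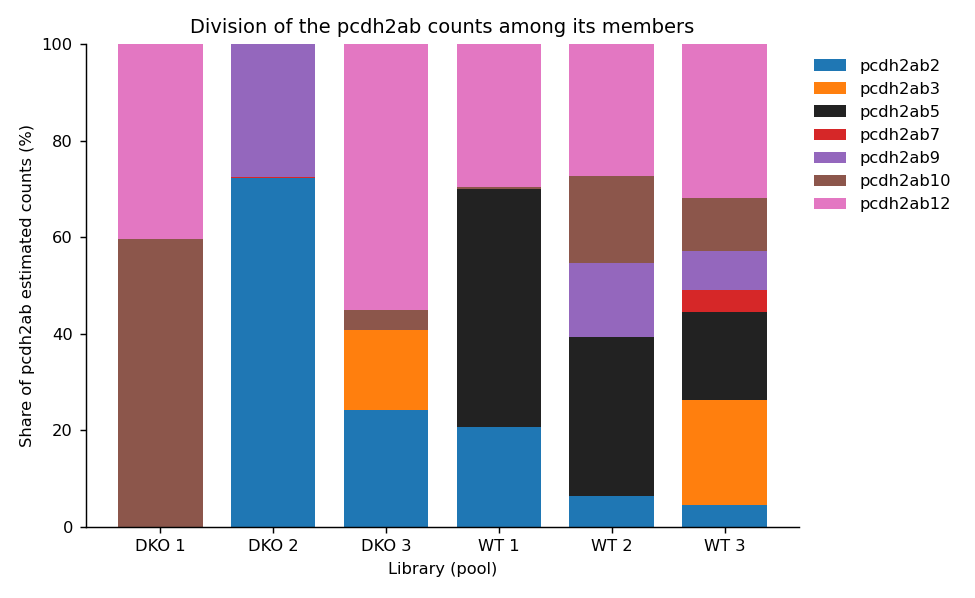
Share of the pcdh2ab estimated counts held by each of its 7 members in each library, in percent, with the 3 mutant (DKO) pools left of the 3 wild-type (WT) pools. The black segment is pcdh2ab5, at or near 0% in mutants, where a different member leads in each pool, and at 49.3%, 32.8% and 18.3% in wild types.

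The summed level of pcdh2ab was 70.5, 168 and 44.1 CPM in mutants and 242, 89.8 and 99.2 CPM in wild types, and the groups overlapped. In means these were 94.0 ± 65.0 CPM in mutants and 144 ± 85.2 CPM in wild types (SD, n = 3 each). The last member of this array in gene order, pcdh2ac, was above 10 CPM in every pool. It had 25.2, 17.3 and 36.1 CPM in mutants and 16.6, 28.2 and 46.6 CPM in wild types, a log2 fold change of -0.22 (SE 0.42; edgeR adjusted p = 0.945).

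At the far end of the array, pcdh2aa1 had 55.6, 434 and 13.1 CPM in the mutant pools. In the wild types it had 35.5 CPM in pool 1, was under 3 counts in pool 2 and had 3.77 CPM in pool 3. It held 63.7% of the counts of pcdh2aa, pcdh2ab and pcdh2ac in mutant pool 2. The mutant mean was higher, with a fitted log2 fold change of 3.68 (SE 1.89; edgeR adjusted p = 0.631), but the groups overlapped. With pools left out in turn the value lay between 1.42 and 6.46. The remaining pcdh2aa row, pcdh2aa3, ranged from 5.35 to 25.2 CPM in mutants and from 0.984 to 29.2 CPM in wild types.

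Of the 13 gamma-type pcdh2g rows, none had at least 3 counts in every library. Their sum was 43.7, 25.8 and 61.6 CPM in mutants and 44.7, 42.9 and 104 CPM in wild types. The rows with the highest mean CPM, pcdh2g28 and pcdh2g2, had 6.48, 0 and 27.2 CPM and 0, 25.6 and 12.2 CPM in the mutant pools. In the wild-type pools pcdh2g28 had 28.5, 13.6 and 30.4 CPM, and pcdh2g2 had 9.93, 14.6 and 34.9 CPM. Each was thus at 0 in a mutant pool in which the other was detected, and in mutant pool 2 pcdh2g2 alone held 99.1% of the pcdh2g counts. Neither passed the test, with log2 fold changes of -1.10 (SE 1.38) and -0.66 (SE 1.44).

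The pcdh2g1 row ran the other way from pcdh2ab5. It had 963, 0.473 and 430 estimated counts in the mutant pools and 0 in every wild-type pool. Mutant pools 1 and 3 were high and mutant pool 2 was level with the wild types, so the groups touched. Summed over pools, the mutant rate was 552-fold higher with 3 counts over the group put in as a floor for wild types. That value rests on mutant pools 1 and 3, leaves out the spread between pools and is no bound for the genotypes. The row did not pass the filter on low counts and has no p in the main fit. In edgeR with no filter or a mean of at least 1 CPM, and in DESeq2, it had an unadjusted p below 0.05 and was not called. The same held for edgeR fits with some of the pools left out. These values are no evidence for the row, given how it was chosen. It was named after its values were seen, as the only kept row at 0 in all wild-type pools. Rows at 0 in all mutant pools after rounding were pcdh2g7 and pcdh2g9, each with counts in wild-type pool 3 alone.

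In the pcdh1a array, nearly all counts came from pcdh1a6. It had 307, 808 and 229 CPM in mutants and 559, 493 and 312 CPM in wild types. This row held at least 80.4% of the pcdh1a counts in every library and 100% in mutant pools 1 and 2. The highest and the lowest pool were both mutant, and the log2 fold change was -0.02 (SE 0.47; edgeR adjusted p = 0.995). Without mutant pool 3 it was 0.29 and without mutant pool 2 it was -0.73.

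In the same array, pcdh1a3 was under 3 counts in mutant pools 1 and 2 and had 11.9 CPM in mutant pool 3. In wild types it had 16.3, 12.7 and 55.8 CPM. The genotypes did not overlap, but mutant pool 3 was close to the lowest wild type. The fitted log2 fold change was -2.83 (SE 1.90; edgeR adjusted p = 0.739), and -13.62 without mutant pool 3. The value without mutant pool 3 depends on the small count added by the model, since mutant pools 1 and 2 were under 3 counts. The remaining row, pcdh1a4, was under 3 counts in those same 2 mutant pools and in wild-type pool 1.

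In the pcdh1g array, all 15 rows were tested and 10 had at least 3 counts in every library. The sum was 215, 161 and 320 CPM in mutants and 203, 350 and 426 CPM in wild types, with overlap. Rows of the middle and later part of the array ranged from steady to patchy. For pcdh1g29, among the steadiest, the values were 28.0, 43.2 and 35.8 CPM in mutants and 21.4, 41.4 and 59.4 CPM in wild types, with a log2 fold change of -0.19 (SE 0.37; edgeR adjusted p = 0.945). The row pcdh1gc5 had 18.7, 4.22 and 47.4 CPM in mutants, against 23.0, 43.4 and 69.1 CPM in wild types. Its change of -0.94 (SE 0.76) moved to -0.41 without mutant pool 2 and to -1.98 without mutant pool 3. The last row, pcdh1g32, was at 0 in mutant pool 2. The division of counts was also steadier here than in pcdh2ab. Of these counts, 57.6% to 76.5% were placed alike between mutant pools and 76.2% to 87.3% between wild-type pools. Between a mutant and a wild-type pool it was 54.0% to 90.7%, so the ranges overlapped.

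At the opposite end, farthest from the common 3′ end, 2 of the 15 rows had lower values in every mutant pool than in any wild-type pool, which 9.08% of all transcripts tested also had. The second of the array, pcdh1g2, had 1.96, 0 and 1.89 CPM in mutants and 8.07, 7.15 and 6.03 CPM in wild types, means of 1.28 ± 1.11 and 7.08 ± 1.02 CPM (SD, n = 3 each). The fourth, pcdh1gb2, showed the same order with 1.01, 0 and 4.88 CPM in mutants against 7.07, 9.13 and 12.1 CPM in wild types. Neither passed the test: the log2 fold changes were -2.46 (SE 1.23; edgeR adjusted p = 0.626) and -2.26 (SE 1.32; edgeR adjusted p = 0.692). Without mutant pool 2, which was at 0 for both, the values were pcdh1g2 -1.84 and pcdh1gb2 -1.63. The rows beside them, pcdh1g1 and pcdh1g3, overlapped between genotypes.

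**Figure D3:**
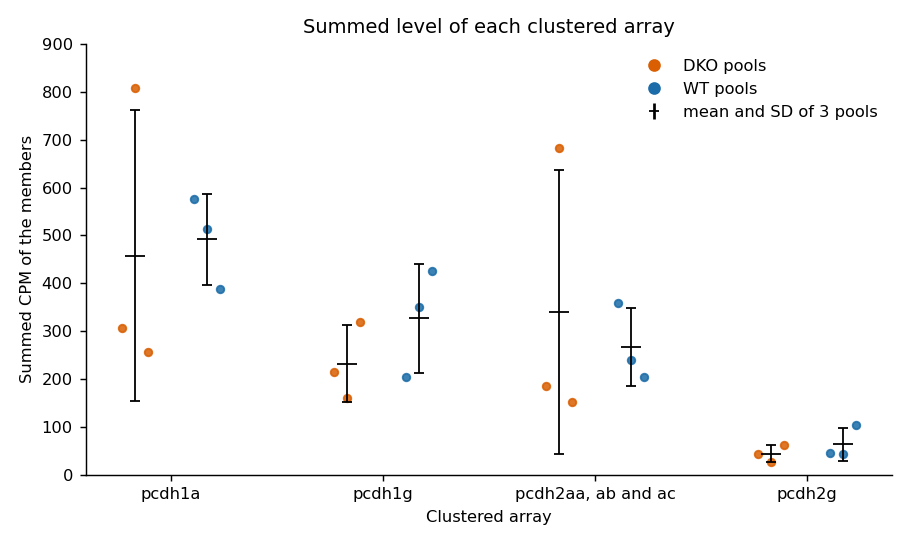
Summed CPM of the members of each clustered array in each pool, with mutant (DKO) pools left of wild-type (WT) pools and bars for the mean and SD of 3 pools. The groups overlap in all 4 arrays, and mutant pool 2 gives the highest sum for pcdh1a (808 CPM) and for pcdh2aa, pcdh2ab and pcdh2ac (682 CPM) and the lowest for pcdh1g (161 CPM) and pcdh2g (25.8 CPM).

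The 9 non-clustered genes were detected in all libraries and all were tested. The delta-type genes, some of whose proteins bind actin regulators through their cytoplasmic tails, are pcdh8, pcdh10a, pcdh10b, pcdh17, pcdh18a, pcdh18b and pcdh19. By fitted fold change 8 of the 9 were lower in mutants and 1 was higher, with a median log2 fold change of -0.37 beside -0.01 over all 13553 transcripts tested. None was called.

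Among the delta-type genes, only pcdh18a was lower in mutants without overlap, as were 9.08% of all transcripts tested. It had 42.9, 43.7 and 33.7 CPM in mutants and 45.1, 55.7 and 50.8 CPM in wild types, means of 40.1 ± 5.56 and 50.5 ± 5.28 CPM (SD, n = 3 each). All mutant pools lay below the lowest wild-type pool, with mutant pools 1 and 2 close to it. The log2 fold change was -0.33 (SE 0.21, edgeR adjusted p = 0.727). Its copy pcdh18b had 52.0, 35.9 and 46.4 CPM in mutants and 39.6, 63.2 and 63.8 CPM in wild types, and the groups overlapped.

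The copies of pcdh10, which encodes a protocadherin of axon tracts, were both lower on average. For pcdh10b the values were 129, 152 and 112 CPM in mutants and 183, 176 and 148 CPM in wild types, and mutant pool 2 lay above wild-type pool 3. The log2 fold change was -0.37 (SE 0.20; edgeR adjusted p = 0.657). For pcdh10a they were 41.4, 20.3 and 52.2 CPM in mutants, against 41.0, 69.3 and 88.0 CPM in wild types. Mutant pools 1 and 3 thus lay within the wild-type range, and the log2 fold change was -0.80 (SE 0.40; edgeR adjusted p = 0.626).

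The gene for Pcdh19, whose human counterpart is mutated in a form of epilepsy, had 208, 604 and 192 CPM in mutants and 406, 371 and 256 CPM in wild types. As for pcdh1a6, mutant pool 2 was the highest library and mutant pool 3 the lowest. The log2 fold change of -0.04 (SE 0.45) turned to 0.23 without mutant pool 3 and reached -0.75 without mutant pool 2. In pcdh17, a protocadherin of synapses and axons, mutant pool 2 was instead the lowest, with 14.8, 6.06 and 40.6 CPM in mutants and 20.2, 20.1 and 45.3 CPM in wild types. Its change was -0.48 (SE 0.65). The paraxial protocadherin gene pcdh8 had 3.88, 0.590 and 5.82 CPM in mutants and 4.62, 3.41 and 17.6 CPM in wild types. Its log2 fold change of -1.31 (SE 0.90) moved to -0.23 without wild-type pool 3.

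The Pcdh15 copies are sensory genes. In zebrafish, pcdh15a serves the tip links of hair cells and pcdh15b the outer segments of photoreceptors. For pcdh15b the values were 1.23, 1.39 and 3.60 CPM in mutants and 4.58, 5.55 and 10.6 CPM in wild types, means of 2.07 ± 1.33 and 6.91 ± 3.23 CPM (SD, n = 3 each). Every mutant pool was lower than every wild-type pool, and the log2 fold change was -1.73 (SE 0.62; edgeR adjusted p = 0.506), between -2.41 and -1.29 with pools left out in turn. The photoreceptor genes were lower in the same libraries: 11 of the 14 did not overlap between genotypes, beside 9.08% of all transcripts that were lower without overlap. Their median log2 fold change was -1.52, and the part of this in the pcdh15b value was not tested.

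For pcdh15a the values were 3.90, 16.1 and 10.1 CPM in mutants and 7.16, 8.83 and 10.6 CPM in wild types, so that the mutant pools spanned the wild types. The log2 fold change was 0.18 (SE 0.51; edgeR adjusted p = 0.968). The 9 hair cell genes with a row had sums of 37.1 to 55.3 CPM in mutants and 46.7 to 53.3 CPM in wild types.

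**Figure D4:**
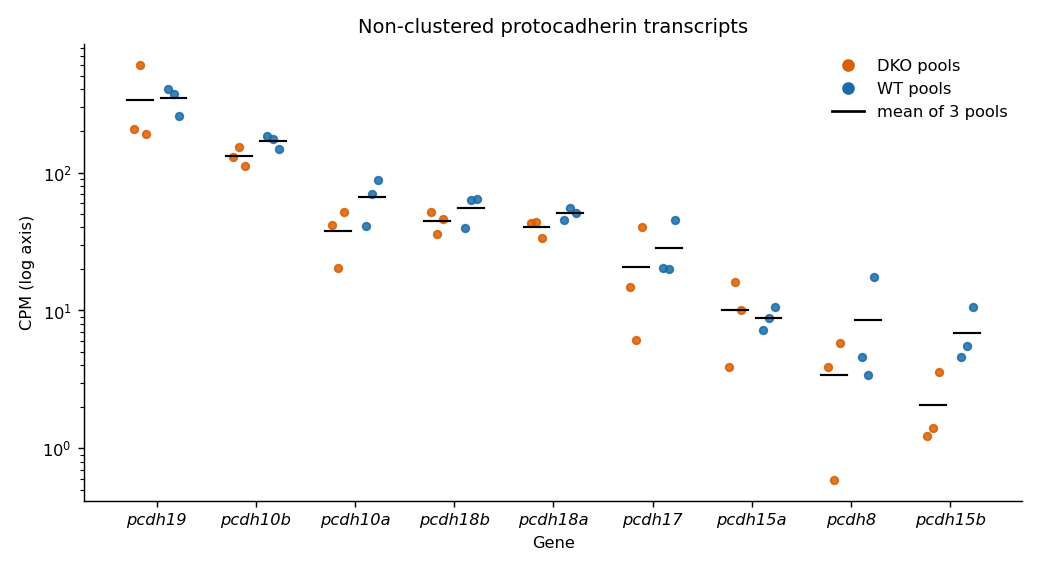
Level of the 9 non-clustered protocadherins in each pool, in CPM on a log axis, with mutant (DKO) pools left of wild-type (WT) pools and a line at the mean of 3 pools. CPM is not scaled for transcript length, so heights are to be compared within a gene; the pools of the genotypes do not overlap for pcdh18a and pcdh15b.

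Across the family, 43 of the 51 rows passed the filter on low counts and 0 were called by edgeR (quasi-likelihood test, Benjamini-Hochberg adjusted p of 0.05), with 0% called over all 13553 transcripts. Leaving pcdh2ab5 aside, 1 of the 42 other rows, pcdh15b, had an unadjusted p below 0.05 in edgeR, beside 8.79% of all transcripts. Of the rows other than pcdh2ab5, DESeq2 called 0, beside 1.39% of all transcripts with an adjusted p, and limma-voom called 0. Of the 8 rows not tested, 2 were pcdh2ab and 6 pcdh2g members. The mutant pools lay below all wild-type pools for 6 rows, pcdh2ab5 (chosen with its values known), pcdh1a3, pcdh1g2, pcdh1gb2, pcdh15b and pcdh18a, or 6 of the 43 tested, and above all of them for 0. Over all transcripts the shares were 9.08% below and 7.71% above. The adjusted p of the tested rows other than pcdh2ab5 lay between 0.506 and 0.995.

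By mean CPM, 41 of the 51 rows were lower in mutants, 33 of the 42 clustered and 8 of the 9 non-clustered. With no filter on low counts, the median log2 fold change was -0.77 over the clustered rows and -0.37 over the non-clustered rows. The clustered median was the same with groups at 0 set to the floor of 3 counts. Over all 14539 transcripts the median was -0.01, and 51.1% were lower. The direction leaned on wild-type pool 3: without it 21 of the 42 clustered rows, and 28 of all 51, were lower in mutants, and the median of the clustered rows tested was -0.20, against -0.74 with it.

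The spread between pools of 1 genotype was wider on median for clustered than for non-clustered genes, with overlapping ranges. The biological coefficient of variation in edgeR's fit, the spread between pools beyond counting noise, had a median of 1.09 over the 34 clustered rows tested and of 0.409 over the 9 non-clustered rows, beside 0.394 over all transcripts tested. It was above 1 for 18 clustered rows and for 0 non-clustered rows, beside 13.7% of all transcripts tested. Still, 13 of the 34 clustered rows were at or below the highest non-clustered value of 0.766. For clustered rows the value can also hold the uncertainty of dividing shared reads, and that part was not tested. The lowest among the clustered rows was 0.361, for pcdh1gc6, and pcdh1g29, pcdh1g18, pcdh2aa15 and pcdh2ac followed at 0.365, 0.383, 0.383 and 0.402. The highest was 2.27, for pcdh2ab9.

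The genes known to act at or downstream of protocadherins gave no call, and edgeR called 0 of all 13553 transcripts tested. The chromatin list, of CTCF, cohesin, DNA methylation and H3K9 methylation genes that act at clustered protocadherin promoters in mouse, had 13 genes with a row. Of these 5 were higher and 8 lower by fitted fold change, with a median of -0.14. The insulator gene ctcf had 219, 185 and 133 CPM in mutants and 184, 227 and 221 CPM in wild types. The cohesin gene smc1al had 288, 373 and 173 CPM in mutants and 182, 163 and 166 CPM in wild types. Mutant pool 3 overlapped the wild types for smc1al, and the log2 fold change was 0.71 (SE 0.28; edgeR adjusted p = 0.548). Of 13 kinase and actin regulator genes that act at protocadherin tails, 3 were higher and 10 lower, with a median of -0.19. Within this list the WAVE complex subunit brk1 had 196, 186 and 180 CPM in mutants, against 256, 299 and 238 CPM in wild types, without overlap. Its log2 fold change was -0.50 (SE 0.18; edgeR adjusted p = 0.518).

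Of 18 classical cadherin and catenin genes, 14 were lower and 4 higher, with a median of -0.24. None was called, with 0% called over all transcripts tested. The classical cadherin gene cdh2, for N-cadherin, had 329, 345 and 257 CPM in mutants and 309, 380 and 368 CPM in wild types, with overlap. The type II cadherin gene cdh6 had 71.5, 72.6 and 73.1 CPM in mutants and 94.4, 126 and 124 CPM in wild types. Its groups did not overlap, with a log2 fold change of -0.67 (SE 0.19; edgeR adjusted p = 0.431). In the other direction, jupa, the gene for a plakoglobin of cell junctions, had 157, 142 and 175 CPM in mutants and 96.6, 83.3 and 101 CPM in wild types. Its log2 fold change was 0.76 (SE 0.19; edgeR adjusted p = 0.406), the smallest adjusted p of this list. In all, 3 of the 18 were lower and 1 was higher without overlap, beside 9.08% and 7.71% of all transcripts tested. The genes named from these lists were chosen after their values were seen.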

How the data were processed

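Poly(A) RNA from 3 DKO and 3 WT pools was sequenced with a stranded kit. The authors deposited kallisto estimated counts per RefSeq transcript, not normalised. The submitters' processing notes name bcl2fastq 2.20.0.422, kallisto 0.42.4 and danRer10. The study's own expression analysis used RPKM values, which were not used here. Kallisto divides reads that fit several transcripts, so counts of clustered members are estimates. Where 1 gene has several transcripts, each row is 1 transcript.

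Accessions were matched to symbols through the RefSeq table of GRCz12tu, for 14740 of 15455 transcripts, and 715 stayed unnamed. Estimated counts were rounded to whole numbers and filtered with filterByExpr, which left 13553 transcripts. They were scaled by TMM and tested with the quasi-likelihood test of edgeR 4.0.16 (R 4.3.3), DKO over WT, with Benjamini-Hochberg adjustment over all transcripts and a threshold of 0.05. CPM was computed with the TMM factors and is not scaled for length. The script was tested on simulated data. Groups were called apart when CPM computed from rounded counts did not overlap. With 3 pools a genotype, an exact permutation test of 1 gene cannot go below p = 0.1. The study's methods describe the pools as biological replicates.

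The genes and lists were chosen with earlier results of these data known. Values in every pool are given for pcdh2ab5, up to 3 rows on each side of it, the 2 members with the highest mean CPM in each array, non-clustered members with a mean of at least 5 CPM, and tested members with the largest changes whose groups did not overlap. Other rows were named after their values were seen. Alternatives were RLE and total-count scaling, no filter, a mean of at least 1 CPM, counts summed per gene, a replicate block, DESeq2 1.42.0, limma-voom (limma 3.58.1) and leaving out each pool in turn.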

Additional observations from a re-analysis of the deposited data

How the results depend on the processing

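For all transcripts, edgeR called 0, leaving out pools in turn gave 0 to 1, and DESeq2 called 196. The unadjusted count was 1191. The protocadherin rows called were 0, with 1 under DESeq2 and 2 unadjusted. The rows counted include pcdh2ab5, which was chosen with its values known and has no test here. These counts are therefore no evidence for it. Among the other rows DESeq2 called 0, and 1, pcdh15b, was below 0.05 unadjusted in edgeR. The cause of the differences between settings was not tested. The clustered median of -0.74 was -1.61 with limma-voom and -1.15 to -0.20 with pools left out. Clustered rows with a lower DKO mean numbered 21 to 35, and all protocadherin rows 28 to 42, the lowest in both without wild-type pool 3, an alternative added after seeing the data. For pcdh2ab5, leaving out pools gave -14.64 to -9.57, values that depend on the small count added by the model.

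Reversed values with limma-voom were -3.43 for pcdh2ab2, -3.38 for pcdh2ab9, -1.66 for pcdh2ab10 and -0.16 for pcdh15a. With the replicate block, reversed values were -2.24 for pcdh2ab9, -2.38 for pcdh2ab10 and -0.025 for pcdh15a, the clustered median was -1.47, and edgeR called 0 transcripts. To look for pairs, each pool's deviations in log CPM from the mean of its own genotype were correlated between mutant and wild-type pools. For same-numbered pools the correlations of these deviations were -0.0911, 0.131 and 0.383, beside -0.366 to 0.228 for differently numbered pools. The pools numbered 3 gave the highest value. These values do not settle whether the numbers mark pairs, and the main fit did not use them as pairs. For pcdh1a6, RLE scaling gave 0.0021 and DESeq2 0.0019. Total-count scaling moved the median of all transcripts to -0.13.

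With pools left out, the range crossed 0 for 19 of the 43 tested rows. Among the rows with values in every pool given by rule, these were -1.83 to 3.10 (pcdh2ab2), -11.72 to 1.93 (pcdh2ab9), -3.30 to 1.31 (pcdh2ab10), -0.73 to 0.29 (pcdh1a6), -0.50 to 0.18 (pcdh1g29), -0.53 to 0.23 (pcdh2ac), -1.65 to 0.033 (pcdh2g2), -0.75 to 0.23 (pcdh19), -0.30 to 0.58 (pcdh15a) and -1.46 to 0.024 (pcdh17). The lower end for pcdh2ab9 depends on the small count added by the model, since mutant pools 1 and 3 were at 0. A clustered member under 3 counts was taken as not detected. The parts of depth, absence and the division of reads in such values were not tested.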
